A study of Mus musculus with 6 samples.

Results

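The G1 cyclins, kinases and inhibitors are 10 genes that carry a cell from G1 into S phase: the D-type cyclins Ccnd1, Ccnd2 and Ccnd3, the E-type cyclins Ccne1 and Ccne2, the cyclin-dependent kinases Cdk2, Cdk4 and Cdk6, the kinase inhibitor Cdkn1b (p27) and the retinoblastoma gene Rb1. All probes annotated to these symbols were taken, 19 of 25697 on the array, and they cover 9 of the 10 genes. No probe was annotated to Cdk4. A probe was tested when its detection p-value, the authors' measure of a signal above negative controls, lay under 0.05 on at least 3 of the 6 arrays. That left 14 probes of 7 members, out of 13064 probes of 9015 genes tested in all.

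Total RNA came from E14, a mouse embryonic stem cell line, and was hybridised to Illumina bead arrays. The Tip5-shRNA group (3 arrays) received shRNAs against Tip5, the remodelling protein that Baz2a encodes, in a combination of constructs with different selection markers. The control-shRNA group (3 arrays) received a non-specific shRNA and is otherwise wild type. Both groups were electroporated with pSuper plasmids, selected with antibiotics from 72 hours on for 6 days, grown on gelatin with serum and LIF, and are labelled as taken at passage 3 after transfection. The knockdown acts on a selected cell pool, so neither the share of cells that lost Tip5 nor any cell-to-cell difference is measured. In bulk RNA, more cells of a type and more RNA per cell cannot be told apart.

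In the textbook order of events, mitogens raise the D-type cyclins, which bind Cdk4 or Cdk6 and start phosphorylating the Rb protein. Rb then releases E2F factors, which switch on the E-type cyclins and replication genes, and cyclin E with Cdk2 completes the phosphorylation of Rb. p27 holds cyclin E and Cdk2 in check until it is degraded. Mouse embryonic stem cells are known for a short G1 phase with high cyclin E and Cdk2 activity, little p27 and Rb that is mostly phosphorylated, and for relying less on D-type cyclins than differentiated cells do.

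Baz2a itself had log2 levels of 5.21, 4.74 and 5.13 in Tip5-shRNA replicates 1, 2 and 3, against 6.42, 7.51 and 5.99 in control-shRNA replicates 1, 2 and 3. The groups did not overlap, and the difference was -1.62 (SE 0.39; limma adjusted p = 0.203, and 0.0810 with the replicate number as a block). Baz2a was above background on 2 of the 3 Tip5-shRNA arrays and on all 3 control-shRNA arrays, and the size depended on the background step: it was -0.57 with no background correction and -1.03 at offset 50. The 8 embryonic stem cell markers listed for this report were all above background on every array. Both replicate 3 arrays stood apart from the other 4 on the first principal component (52.8% of the variance), and they were also brighter before normalization, with mean signals of 1092 (Tip5-shRNA) and 876 (control-shRNA) against 486 to 544 on the others. Values below are therefore given for each replicate number. Differences are log2, Tip5-shRNA minus control-shRNA, and a difference of 1 is a doubling. Levels of different probes cannot be set against each other.

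Among the D-type cyclins, Ccnd2 was the member with the largest difference. Its single probe had log2 levels of 8.73, 8.15 and 8.61 in Tip5-shRNA replicates 1, 2 and 3, against 6.25, 6.22 and 7.27 in control-shRNA replicates 1, 2 and 3. Every Tip5-shRNA array lay above every control-shRNA array, and the highest control was replicate 3. The means were 8.50 ± 0.31 in Tip5-shRNA cells and 6.58 ± 0.60 in control-shRNA cells (SD, n = 3 each), a difference of 1.92 (SE 0.33, 95% interval 1.15 to 2.68), or 3.77-fold. By size of increase it was number 5 of the 9015 genes.

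The same probe shows the difference in the deposited signals, before any correction. They were 390, 292 and 931 in Tip5-shRNA replicates 1, 2 and 3, against 164, 150 and 356 in control-shRNA replicates 1, 2 and 3. Within each replicate number the Tip5-shRNA signal was the higher. The probe was above background on all 6 arrays, but the control signals of replicates 1 and 2 lay close to the median signal of all probes on those arrays, 134 and 125. The size of the difference therefore depends on how background is removed, and it was 1.14 (SE 0.18) with no background correction.

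With 2-group means Ccnd2 did not pass the threshold of an adjusted p under 0.05 over all probes (limma adjusted p = 0.111). The replicate numbers were taken as pairs, which the labels do not state. Same-numbered arrays deviated together from their group means with correlations of 0.44, 0.52 and 0.71 across probes. The pairing sets replicate 3 apart more clearly than it parts replicates 1 and 2. Control-shRNA replicate 1 correlated at 0.46 with Tip5-shRNA replicate 2, and control-shRNA replicate 2 at 0.37 with Tip5-shRNA replicate 1. The correlations therefore do not decide how replicates 1 and 2 match, and the blocked fit rests on the numbering. In the fit blocked by replicate number Ccnd2 rose by 1.92 (SE 0.23, limma adjusted p = 0.0299), and the differences of pairs 1, 2 and 3 were 2.48, 1.93 and 1.34. The exact two-sided permutation test over the 3 against 3 arrays gave p = 0.1, the smallest this design allows. Leaving out control-shRNA replicate 3 raised the difference to 2.26 and gave an adjusted p of 0.0317 (limma, 2-group means). Without any other single array the same fit did not pass, with adjusted p from 0.0972 to 0.508. The blocked fit without replicate 2 gave 1.91 and an adjusted p of 0.0975.

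Ccnd2 was the only one of the 7 tested members called with the block, where 1.95% of all 9015 genes were called and 0.732% were called as higher. With 2-group means limma called 0 of the 7, beside 0.0776% of all genes, and 1 of the 7 had an unadjusted p under 0.05, beside 11.2% of all genes. Ccnd2 was also the only 1 of the 7 whose groups did not overlap, beside 17% of all genes (8.96% with Tip5-shRNA higher). Ccnd1 and Ccnd2 differed the same way in all 3 replicate pairs, as 46.6% of all genes did. A share of 2 in 7 is no higher than that background.

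Ccnd1, cyclin D1, was read by 3 probes, all of them above background on every array. The brightest had levels of 12.27, 11.97 and 12.37 in Tip5-shRNA replicates 1, 2 and 3, against 11.62, 11.45 and 12.19 in control-shRNA replicates 1, 2 and 3. The groups overlapped, because control replicate 3 lay above Tip5-shRNA replicate 2. Its difference was 0.45 (SE 0.25, 95% interval -0.12 to 1.03; limma adjusted p = 0.613, and 0.161 with the block). The other probes gave 0.40 (SE 0.18) and 0.53 (SE 0.22), and on both of them the groups did not overlap. The groups of 17% of all genes did not overlap either, and probes of 1 gene on the same arrays are not independent. All 3 probes were higher in the Tip5-shRNA array of each replicate number, by 0.18 to 0.83, and none passed the test in either fit (limma called 0.0689% of all probes with 2-group means and 1.71% with the block). Replicate 3 shows the smallest difference on each probe, 0.18, 0.29 and 0.23.

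Ccnd3, cyclin D3, did not share this direction. Its brightest probe had levels of 11.83, 12.03 and 12.12 in Tip5-shRNA replicates 1, 2 and 3, against 12.05, 12.24 and 12.05 in control-shRNA replicates 1, 2 and 3. The groups overlapped, and the difference was -0.12 (SE 0.18, 95% interval -0.53 to 0.29; limma adjusted p = 0.915). A further tested probe gave -0.16 (SE 0.19), and the remaining probe was not above background on any of the 6 arrays.

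**Figure D1:**
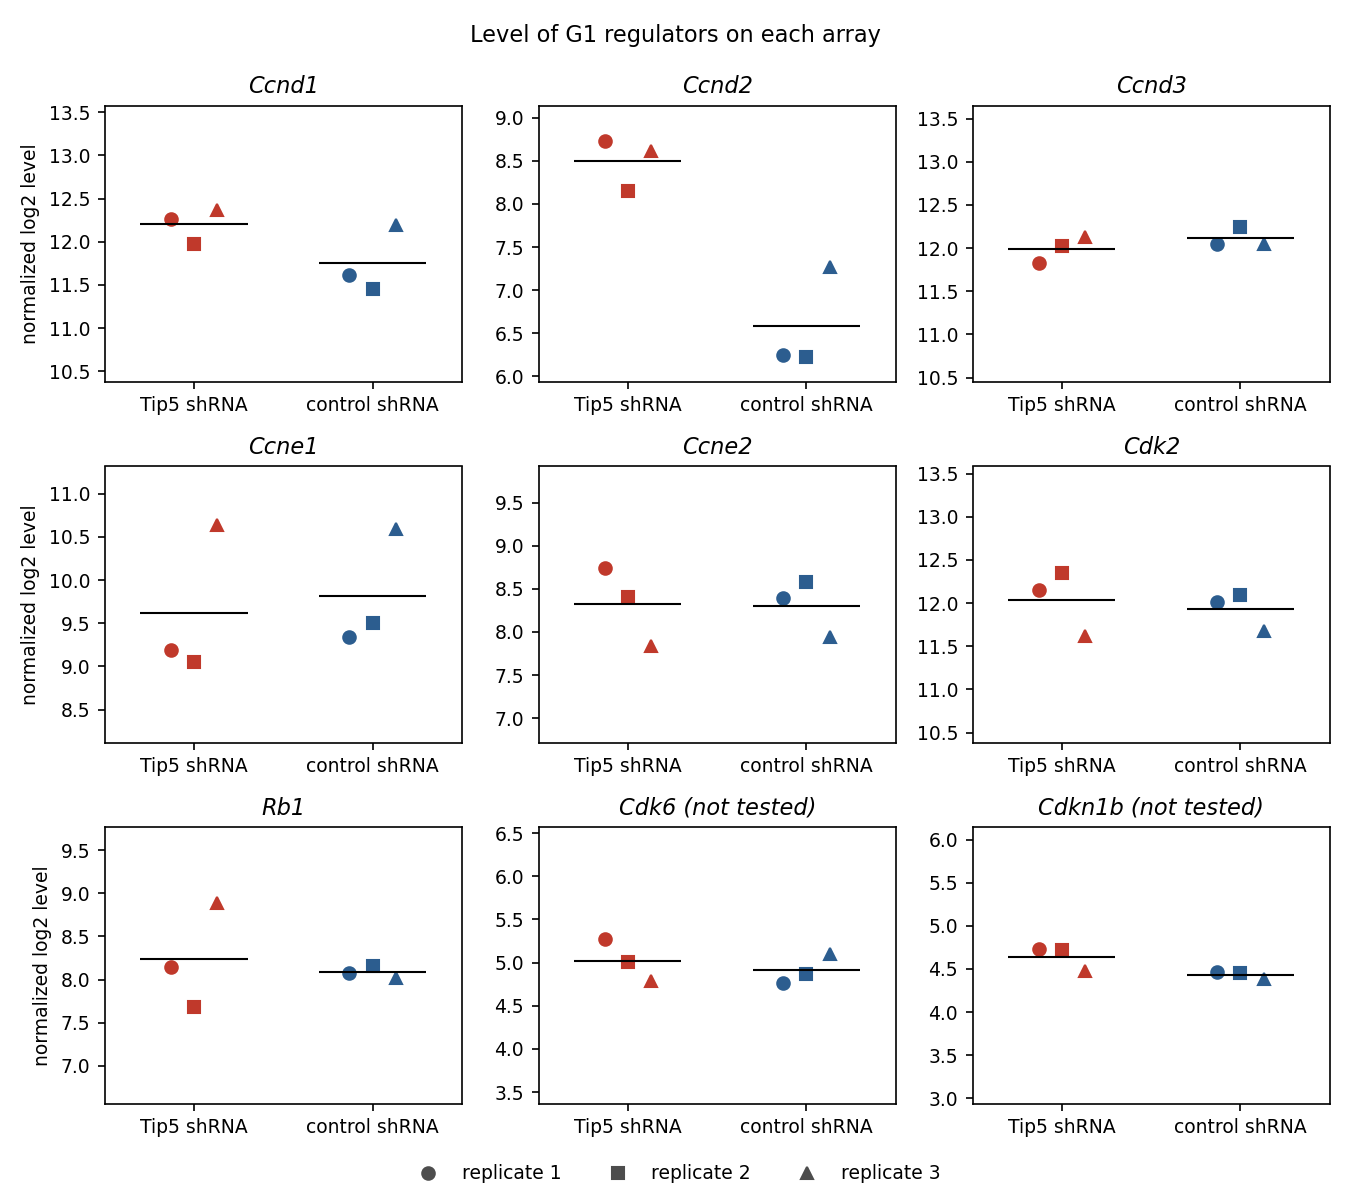
Normalized log2 level (y axis, a window of equal height in each panel, centred on the panel's own mean) of each member's brightest tested probe (untested members by 1 probe) on every array, with Tip5 shRNA at left and control shRNA at right; horizontal lines are group means and marker shapes give the replicate number. Ccnd2 separates the groups, while Ccne1, Ccne2 and Cdk2 separate replicate 3 from replicates 1 and 2 in both groups; Cdk6 and Cdkn1b (1 of its 3 probes is drawn) were not tested.

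Whether the 3 D-type cyclins changed by unequal amounts was asked from the within-array log2 difference between 2 of them, centred on its mean over the 6 arrays. Ccnd2 relative to Ccnd1 stood at 0.91, 0.61 and 0.68 in Tip5-shRNA replicates 1, 2 and 3, against -0.92, -0.79 and -0.48 in control-shRNA replicates 1, 2 and 3, a change of 1.46. Ccnd2 relative to Ccnd3 changed by 2.03, and in both pairs the groups did not overlap. Ccnd3 relative to Ccnd1 changed by -0.57 and the groups overlapped. The exact permutation p was 0.1, 0.1 and 0.2 for the 3 pairs (two-sided), or 0.15, 0.15 and 0.2 after Benjamini-Hochberg adjustment, in a design that cannot reach 0.05.

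The E-type cyclins did not differ detectably between the groups. Ccne1, cyclin E1, had levels of 9.19, 9.05 and 10.63 in Tip5-shRNA replicates 1, 2 and 3, against 9.34, 9.50 and 10.59 in control-shRNA replicates 1, 2 and 3. Its groups overlapped throughout, and the high arrays were the replicate 3 array of each group. The difference was -0.19, with an SE of 0.50 and a 95% interval of -1.36 to 0.98 (limma adjusted p = 0.961). With the replicate block the SE was 0.15 and the interval -0.56 to 0.19, and the adjusted p was 0.517.

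Ccne2, cyclin E2, had levels of 8.74, 8.40 and 7.84 in Tip5-shRNA replicates 1, 2 and 3, against 8.40, 8.58 and 7.94 in control-shRNA replicates 1, 2 and 3. Here the replicate 3 arrays were the low ones. The difference was 0.02 (SE 0.29, 95% interval -0.65 to 0.70; limma adjusted p = 0.991).

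Cdk2, the kinase partner of cyclin E, was read by 4 probes whose differences lay close together. The brightest had levels of 12.16, 12.35 and 11.61 in Tip5-shRNA replicates 1, 2 and 3, against 12.02, 12.09 and 11.67 in control-shRNA replicates 1, 2 and 3, a difference of 0.11 (SE 0.25, 95% interval -0.46 to 0.69; limma adjusted p = 0.949). The others gave -0.0025, 0.083 and 0.054. On all 4 probes both replicate 3 arrays were below the other 4 arrays, though by unequal amounts. The probe annotated to transcript NM_183417 read 10.56, 10.73 and 9.03 in Tip5-shRNA replicates 1, 2 and 3, against 10.25, 10.62 and 9.21 in control-shRNA replicates 1, 2 and 3. Replicate 3 minus the mean of replicates 1 and 2 was -1.61 in Tip5-shRNA cells and -1.23 in control-shRNA cells on that probe. On the less bright probes annotated to NM_016756 the same differences were -0.28 and -1.11 in Tip5-shRNA cells, against -0.14 and -0.35 in control-shRNA cells, so probes of 1 transcript also differed among themselves.

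**Figure D2:**
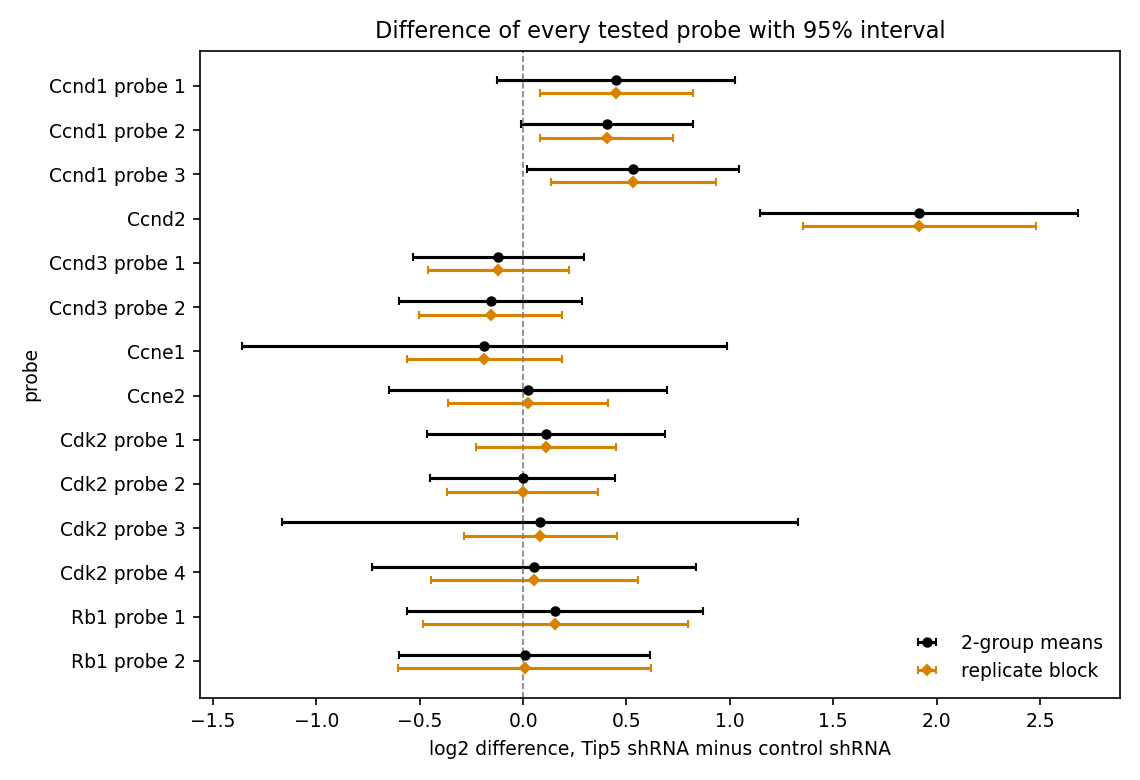
Log2 difference, Tip5 shRNA minus control shRNA (x axis), of each of the 14 tested probes (y axis), with 95% intervals from limma for the fit with 2-group means (black circles) and with the replicate block (orange diamonds). The Ccnd2 probe lies at 1.92, the 3 Ccnd1 probes between 0.40 and 0.53, and every interval of the other members includes 0.

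The inhibitor Cdkn1b and the kinase Cdk6 gave little or no signal. Cdkn1b was above background on 0 of the 6 arrays with each of its 3 probes. Their levels ran from 4.33 to 4.74 in Tip5-shRNA cells and from 4.39 to 4.66 in control-shRNA cells, all under the lowest level at which any probe was detected (4.96 to 5.15, depending on the array). On 1 of the 3 probes the groups did not overlap (4.73, 4.72 and 4.48 in Tip5-shRNA replicates 1, 2 and 3, against 4.46, 4.45 and 4.39 in control-shRNA replicates 1, 2 and 3). With no array above background this gives no fold and no direction for p27.

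Cdk6 was above background on 1 Tip5-shRNA and 1 control-shRNA array. Its single probe had levels of 5.27, 5.00 and 4.79 in Tip5-shRNA replicates 1, 2 and 3, against 4.76, 4.86 and 5.10 in control-shRNA replicates 1, 2 and 3, and the groups overlapped. Cdk4, the other kinase partner of the D-type cyclins, was not analysed here for lack of an annotated probe. Of the kinases, Cdk2 alone is therefore measured on these arrays.

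Rb1, the substrate of these kinases, was read by 2 tested probes. The brighter had levels of 8.15, 7.68 and 8.89 in Tip5-shRNA replicates 1, 2 and 3, against 8.07, 8.16 and 8.02 in control-shRNA replicates 1, 2 and 3. The Tip5-shRNA arrays spread over 1.21 log2 units, on both sides of the control arrays. The difference was 0.16 (SE 0.31, 95% interval -0.56 to 0.87; limma adjusted p = 0.940), and the other probe gave 0.0085 (SE 0.26). Both probes had their highest pair difference in pair 3, at 0.87 and 0.73, against 0.074 and -0.48 in pairs 1 and 2 on the brighter probe and -0.46 and -0.25 on the other.

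The E-type cyclins and Cdk2 differed more by replicate number than by shRNA. Ccne1 stood 1.52 (Tip5-shRNA) and 1.17 (control-shRNA) higher in replicate 3 than in the mean of replicates 1 and 2. Ccne2 stood lower there, at -0.73 and -0.55, and the brightest Cdk2 probe at -0.64 and -0.38. Of the 7 tested members, 1 had both replicate 3 arrays above the other 4 and 2 had both below. Over all 9015 genes the shares were 21.7% above and 25.2% below, and the members' shares of 1 and 2 in 7 do not stand out from them. For Ccnd2 the control array of replicate 3 was 1.03 higher than the mean of control replicates 1 and 2, whereas the Tip5-shRNA array of replicate 3 was 0.17 higher than its own. The pair 3 difference (1.34) was accordingly the smallest.

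**Figure D3:**
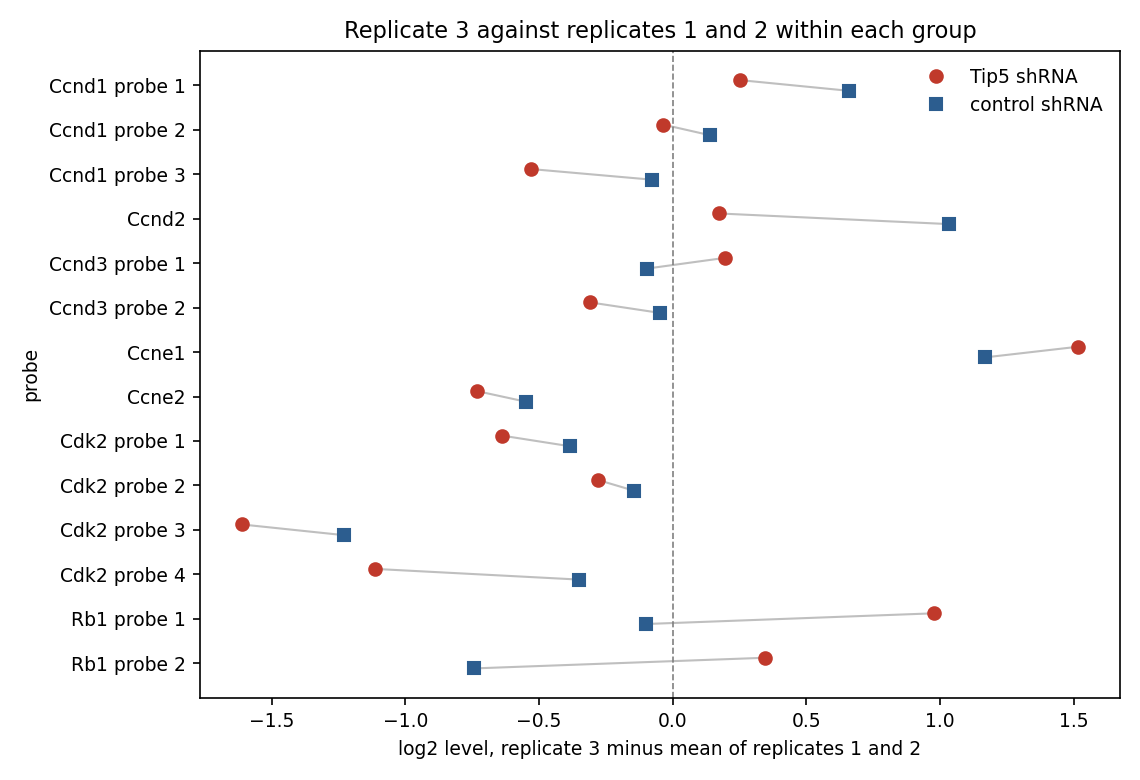
Log2 level of replicate 3 minus the mean of replicates 1 and 2 (x axis), within Tip5-shRNA cells (red circles) and within control-shRNA cells (blue squares), for each tested probe (y axis). Ccne1 lies at 1.52 and 1.17, the 4 Cdk2 probes all lie below 0, and the symbols of Ccnd2 and Rb1 are far apart.

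Markers of other cell types were read beside these values. Of the 12 primitive and parietal endoderm markers, 7 were tested. Their linear levels were summed, so that the brightest probes weigh most. The log2 of the sum was 11.69, 11.62 and 14.34 in Tip5-shRNA replicates 1, 2 and 3, against 12.21, 12.39 and 12.65 in control-shRNA replicates 1, 2 and 3. Tip5-shRNA replicate 3 is the high array, as it is for the brighter Rb1 probe. Gata4, Sox17, Sox7, Lamb1 and Foxa2, the 5 markers not tested, were each above background on at most 1 array of a group. The part of this in the replicate 3 values was not tested. With replicates 1 and 2 only, the Ccnd2 difference was 2.20 (SE 0.22, limma adjusted p = 0.0209). The part of endoderm cells in the Ccnd2 difference was not tested.

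Of 8 neural ectoderm markers 3 were tested, and limma called 0 of them with 2-group means and 1, Sox21, with the block. The log2 of their summed linear levels was 10.49 to 11.35 in Tip5-shRNA cells, against 9.07 to 9.43 in control-shRNA cells. Sox21 itself stood at 11.07, 10.91 and 9.82 in Tip5-shRNA replicates 1, 2 and 3, against 7.71, 8.19 and 8.22 in control-shRNA replicates 1, 2 and 3. Sox21, a SOX transcription factor of neural progenitors, had a difference of 2.56 (SE 0.35; limma adjusted p = 0.0606, and 0.0335 with the block), with its other probe at 1.72. Nes, the intermediate filament nestin, had 0.90 (SE 0.27; 0.296 and 0.0571), with its other probe at 0.25, and Map2 had -0.068. Sox1, Pax6, Zic1 and Neurog2 were above background on 0 of the 6 arrays and Tubb3 on 1. The part of such cells in the Ccnd2 difference was not tested. Of the 7 fibroblast markers with a probe Thy1 alone was tested, at 6.86 to 7.40 in Tip5-shRNA cells, against 7.85 to 8.65 in control-shRNA cells. Col3a1, Postn and Lum were above background on no array, and Col1a1, Col1a2 and Dcn each on at most 1 array of a group. Of the 6 mesoderm markers with a probe, Mixl1, Eomes, Hand1 and Mesp1 were above background on no array. Tbx6 and Kdr were tested, with differences of -0.018 (SE 0.21) and 0.17 (SE 0.36). The log2 of their summed linear levels was 6.21 to 6.97 in Tip5-shRNA cells, against 6.41 to 6.78 in control-shRNA cells. Of 6 trophectoderm markers 4 were tested. The log2 of their summed linear levels was 11.903, 11.886 and 12.413 in Tip5-shRNA replicates 1, 2 and 3. In control-shRNA replicates 1, 2 and 3 it was 11.895, 11.779 and 11.870. The groups overlapped, and Tip5-shRNA replicate 3 was the high array.

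The rest of the G1/S machinery was described with 8 lists that hold 80 genes, of which 59 were tested. With either limma fit 0 of the 59 were called in either direction, where 0.0776% (2-group means) and 1.95% (block) of all genes were. The groups did not overlap for 7 of the 59 (4 higher, 3 lower), a smaller share than the 17% of all genes, so separation is no result about these regulators. Their median difference was 0.095, with 38 positive and 21 negative. Over all 9015 genes the median was 0.022, and 52.8% were positive. The 7 tested members had a median of 0.11, with 5 positive and 2 negative.

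The E2F and DP factors, only some of which Rb restrains, had a median of 0.10 over 9 genes. E2f1, an activator of S phase genes, stood at 10.76, 10.79 and 10.78 in Tip5-shRNA replicates 1, 2 and 3, against 10.67, 10.58 and 9.98 in control-shRNA replicates 1, 2 and 3 (difference 0.36, SE 0.22, limma adjusted p = 0.686). Control replicate 3 lay furthest below the rest. E2f6, a repressor, had 0.29 and E2f7, an atypical repressor above background on 3 of 6 arrays, 0.24. Differences were 0.29 for Lin54 and 0.26 for Lin37, both of the MuvB complex, and 0.21 for the pocket protein Rbl1 (p107), with SEs of 0.19 to 0.21.

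The E2F targets of G1/S and replication had a median of 0.040 over 16 genes, 8 positive and 8 negative. Tk1, the thymidine kinase of S phase, had levels of 10.87, 10.79 and 10.57 in Tip5-shRNA replicates 1, 2 and 3, against 11.36, 11.35 and 11.12 in control-shRNA replicates 1, 2 and 3. The difference of -0.53 (SE 0.18) had an adjusted p of 0.347 in limma and of 0.0894 with the block. All 3 Tk1 probes lay between -0.58 and -0.53. Mybl2, a cell cycle transcription factor, had 0.31 (its 3 probes spanned 0.29 to 0.81) and Rrm1, a ribonucleotide reductase subunit, -0.28. Mcm2 had 0.16 and Pcna 0.14, while the 3 tested probes of Mcm6, a subunit of the replicative helicase, spanned -0.60 to -0.20.

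The other CDK inhibitors had 1 positive and 4 negative differences, with a median of -0.080. Cdkn1c (p57) was the furthest, with levels of 9.44, 9.10 and 10.44 in Tip5-shRNA replicates 1, 2 and 3, against 10.53, 10.27 and 10.33 in control-shRNA replicates 1, 2 and 3. It was lower in pairs 1 and 2 and slightly higher in pair 3, so the groups overlapped, and the difference of -0.72 (SE 0.34) had an adjusted p of 0.538 in limma. Cdkn2d (p19) had 0.20 and Cdkn1a (p21), a p53 target, -0.14 (SE 0.31).

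Among genes for the degradation of cyclins and p27, 10 of 13 were positive, beside 52.8% of all genes, with a median of 0.099. Fzr1, the Cdh1 activator of the anaphase-promoting complex, had 0.48 (SE 0.21; limma adjusted p = 0.482, and 0.114 with the block), while its 3 probes spanned 0.14 to 0.48. Fbxo4, an F-box protein described as acting on cyclin D1, had 0.45 (SE 0.19) and Usp28, a deubiquitinase, -0.87 (SE 0.38). Skp2, which marks p27 for degradation, had 0.065 (SE 0.25).

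The remaining lists held differences between -0.18 and 0.31. Of the MYC and mitogen inputs, with a median of 0.14 over 7 genes, Foxm1 had 0.31 (SE 0.22), Max 0.20 and Myc -0.18 (SE 0.28). Of the CDK-activating kinase and phosphatases, Cdc25b had 0.27, Mnat1 -0.17 and Cdc25a -0.064. Of the S and M phase cyclins and CDK1, Cdk1 was the sole gene tested, at 0.19 (SE 0.16). Ccna2, Ccnb2, Cks1b and Cks2 had a probe that did not pass the detection filter.

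**Figure D4:**
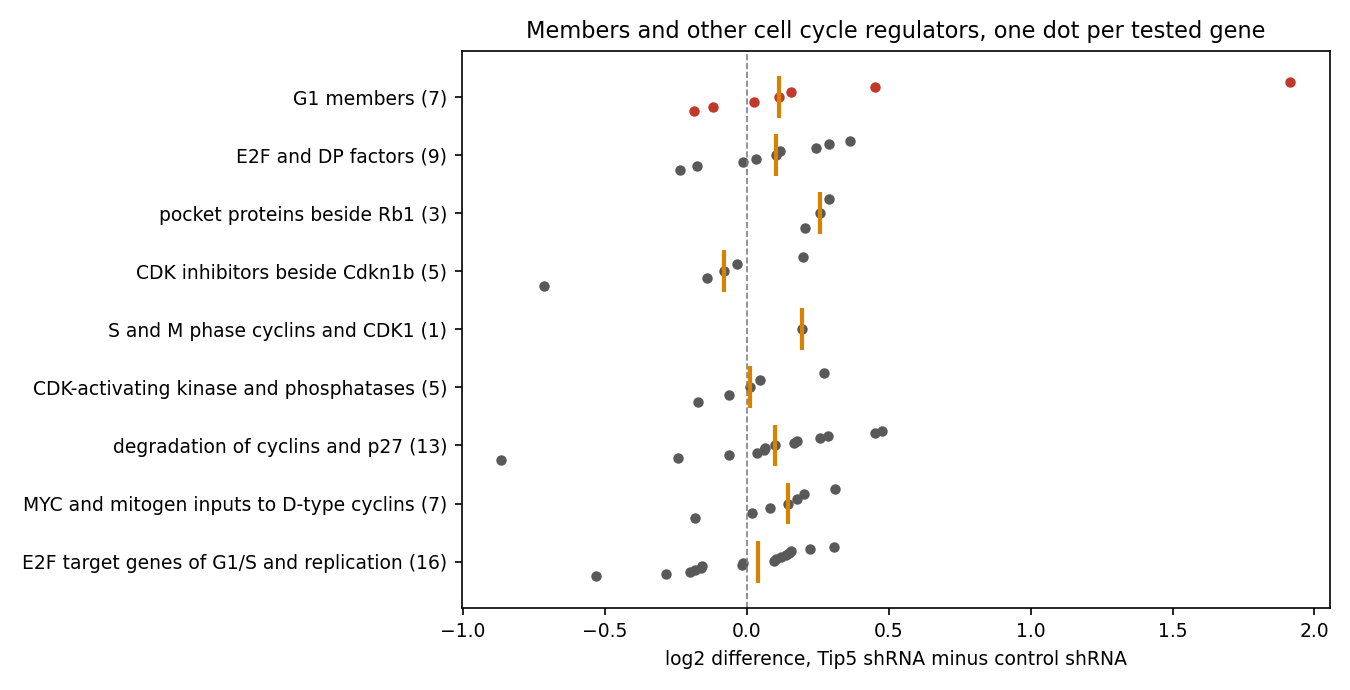
Log2 difference, Tip5 shRNA minus control shRNA (x axis), of each tested gene (dots) in the G1 members and 8 lists of cell cycle regulators (rows, with the number of tested genes), with each row's median in orange. Ccnd2 at 1.92 is the one gene beyond a difference of 1, and the 59 listed regulators lie between -0.87 and 0.48.

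Genes whose levels ran most like a member's over the 6 arrays were found from the root mean square distance between levels centred on each gene's own mean, for the 3 members that spanned over 1 log2 unit. Nearest to Ccnd2 were Insm1, a zinc finger factor of neuroendocrine differentiation (distance 0.28), Car2, a carbonic anhydrase (0.33), and Tenm4, a teneurin (0.34). Insm1 had levels of 8.47, 7.86 and 8.19 in Tip5-shRNA replicates 1, 2 and 3, against 6.00, 6.65 and 7.24 in control-shRNA replicates 1, 2 and 3. It shares with Ccnd2 the separated groups and a control replicate 3 above the other controls. Nearest to Ccne1 were Psmd8, a proteasome subunit (0.082), Atp6v1g1, a proton pump subunit (0.10), and Cldn12, a claudin (0.12), all high in both replicate 3 arrays. Nearest to Rb1 were Tmem62 (0.11), Ecm1, an extracellular matrix protein (0.12), and Nceh1, a cholesterol ester hydrolase (0.12), all highest in Tip5-shRNA replicate 3. Such nearness over 6 arrays that share these replicate patterns is a description only.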

How the data were processed

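For each probe and array the authors deposited a linear signal intensity and a detection p-value, per the file headers. The submitters' processing notes name GenomeStudio 2011.1. The authors also deposited processed intensity values (array means of 538 to 539), used as an alternative. Signals were background-corrected from the detection p-values (limma 3.58.1, R 4.3.3, normexp, offset 16), quantile normalized and log2-transformed, which compresses differences of dim probes. Each of 23978 probes had 1 symbol and 1719 had none, and symbols were updated by Entrez identifier. Of several tested probes, the one with the highest mean level represents a gene, and the others are given beside it. Groups were compared with lmFit and eBayes on 2-group means, with Benjamini-Hochberg adjustment over 13064 probes, and as an alternative with the replicate number as a block. Replicate numbers come from the sample titles, and the correlations of same-numbered arrays were 0.44, 0.52 and 0.71. The fit was tested on simulated data. Precision is limited by the 3 arrays in a group. The labels speak of more than 1 transfection without tying replicates to them, so p-values measure only the spread between these samples, which may be technical. Named genes are all members, the 3 genes with the largest difference in each list, the 3 nearest patterns and the markers, with Skp2, Mcm2, Mcm6 and Pcna chosen after their values were seen. Members and lists were chosen with earlier results of these data known. Other normalizations, filters and left-out arrays were tried, the last with the normalization of all 6 arrays kept.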

Additional observations from a re-analysis of the deposited data

How the results depend on the processing

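Over 23 alternatives Ccnd2 stayed higher (1.14 to 2.26, limma adjusted p 0.0023 to 0.508) and passed in 10. Each of the 10 used the replicate block or left out a replicate 3 array. With 2-group means on all 6 arrays, other normalizations and filters gave Ccnd2 a limma adjusted p of 0.0800 to 0.402, and none passed. Ccnd1 (0.30 to 0.67) and Ccnd3 (-0.22 to -0.037) kept their sign, except for the Ccnd3 probe below background (0.14), and Ccnd1 passed once, with the replicate block and no background correction (adjusted p = 0.0432). The replicate block called 223 probes, 176 genes and 1 member (Ccnd2), and changed no other member's call. With 2-group means limma called 9 probes and 7 genes, and the other settings called 4 and 2 (uncorrected background), 28 and 23 (offset 50), 4 and 4 (median scaling), 25 and 20 (cyclic loess), 6 and 4 (strict detection filter), 3 and 3 (processed values of the authors), and 0 and 0 without the filter (2120 and 1520 at an unadjusted p under 0.05). The share of called probes that were higher was 0% as reported, 25% with no background correction and 14.3% with offset 50. Leaving out 1 array gave 0 to 98 probes, 0 to 81 genes and 0 to 1 members; the highest counts came without Tip5-shRNA replicate 3, and without control-shRNA replicate 3 they were 40 and 32. Replicates 1 and 2 alone gave 564 probes, 428 genes, 1 member and 1 listed regulator (Cdkn1c). The block without 1 replicate gave 10 to 669 probes, 9 to 502 genes, 0 to 1 members and 0 to 1 listed regulators, with 52 and 43 without replicate 1. Settings that join the block to another normalization were chosen after seeing the data. They called 1102 probes, 844 genes, 2 members and 3 listed regulators (Fzr1, Usp28, Tk1) with no background correction, 926, 696, 1 and 3 at offset 50, and 97, 76, 1 and 0 on processed values. Median scaling called 463, 350, 1 and 0, and cyclic loess 479, 367, 1 and 0. Called probes that were higher made up 35.4% with the block, 46.1% without background correction and 51.8% with median scaling. Baz2a passed in 3 of these, at -1.03 (offset 50), -1.45 (median scaling) and -1.50 (cyclic loess), but not with uncorrected background (-0.57, adjusted p = 0.0566) or processed values (-1.61, adjusted p = 0.103). It ran from -1.99 to -0.57 over 22 alternatives. Members near 0 changed sign. Leaving out 1 array, Ccne1 ran from -0.69 to 0.20, Ccne2 from -0.18 to 0.27, Cdk2 from -0.042 to 0.32 and Rb1 from -0.17 to 0.43. Ccne2 was -0.14 in the block without replicate 1, Rb1 was -0.20 with replicates 1 and 2 alone in either fit, and a Cdk2 probe was -0.0025. The cause of these shifts was not tested.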
